A study of Mus with 12 samples.

Results

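A2m, Crabp2, Map3k12 and F2rl1 are 4 of the 770 genes measured in this series, chosen by their normalized counts, which differed strongly between single tumours that had received the same treatment. The spread between tumours of a group is therefore described here without a test. All 4 were matched by symbol.

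The samples were mouse hepatocellular carcinomas that the labels name MYC-HCC, and total RNA came from formalin-fixed, paraffin-embedded (FFPE) liver tumour. Each of 4 groups held 3 mice, 1 tumour library per mouse, which had received control IgG (Ctrl IgG), an antibody against PDL1 (Anti PDL1), an antibody against CTLA4 (Anti CTLA4) or both antibodies (Anti PDL1+CTLA4). All groups, the IgG controls included, carried MYC-HCC. The sources used here do not give strain, age, how MYC was expressed, dose or time of sampling. Expression was read with the nCounter mouse IO360 panel, which counts fluorescent barcodes bound to each RNA without amplification.

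A2m encodes alpha-2-macroglobulin, a large secreted protein that traps proteases of different classes and carries them to the receptor LRP1 for removal. F2rl1 encodes protease-activated receptor 2 (PAR2), a G protein-coupled receptor that is switched on when a trypsin-like serine protease cuts its outer end. Map3k12 encodes DLK, a kinase at the top of the JNK branch of the MAP kinase cascade that is best known from neurons, and Crabp2 encodes a small protein that binds retinoic acid in the cell and hands it to nuclear retinoic acid receptors.

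Values are normalized counts as the authors deposited them, with 1 scaling factor per library and a floor: no gene was listed below 20. Recovered counts totalled 439149 to 864464 per library, and the scaling factors were 0.562 to 1.10 in IgG libraries, with 2.62 the highest of the treated ones. Where a library's factor exceeded 1, a value listed at 20 could hide a level as high as that factor times 20. The limit behind a floor value was thus 42.0 in Anti PDL1 2, 52.5 in Anti CTLA4 2, 35.9 in Anti PDL1+CTLA4 2 and 20 in Anti CTLA4 3. The highest of the 8 negative probes read 15 to 30 counts. Liver identity of the tissue was checked with 16 hepatocyte and liver markers, of which 5 were measured (Serpina1a, Fbp1 and Apoe among them), and none of the 5 lay at the floor in any of the 12 libraries.

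**Figure D1:**
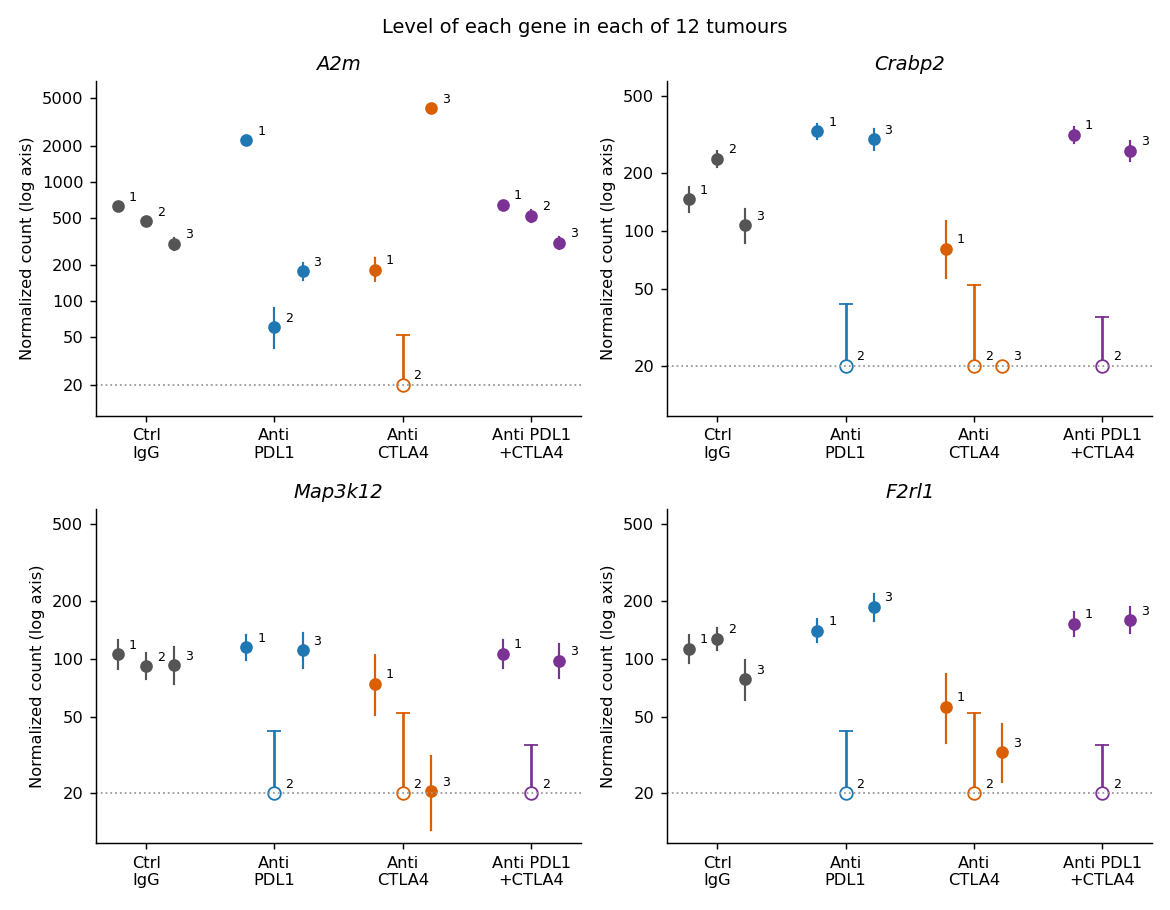
Normalized count (vertical log axis) of each gene in each of the 12 tumours, by group, with the replicate number beside each point. Filled points carry exact Poisson 95% intervals of the recovered count, which cover counting error only; open points were listed at the floor of 20 (dotted line), and their line reaches to the limit that the floor value allows. A2m ran from 4152 in Anti CTLA4 3 to the floor in Anti CTLA4 2, and Crabp2, Map3k12 and F2rl1 were at the floor together in the library numbered 2 of each treated group.

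A2m had the highest within-group spread of the 770 genes in the values as listed. In the IgG tumours it was at 627, 471 and 302.5 normalized counts in mice 1, 2 and 3. Under Anti PDL1 it was at 2247, 60.9 and 178, and under Anti CTLA4 at 184, the floor and 4152. Under the combination it was at 646, 519.9 and 309. The IgG and combination tumours thus covered almost the same range, while each single antibody group held 1 tumour above all IgG tumours and 2 tumours below all of them.

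The ratio of the highest to the lowest A2m value was 2.07 under IgG and 2.09 under the combination. In the Anti PDL1 group it was at least 35.7, set against the highest negative probe of the lowest library (63.0 on the normalized scale). In the Anti CTLA4 group it was at least 79.1, set against the limit of 52.5 of the library at the floor. On the log2(value + 1) scale the SD (n = 3 each) was 0.53 for IgG, 2.66 for Anti PDL1, 3.83 for Anti CTLA4 and 0.55 for the combination. That made A2m the most variable gene of the panel under Anti CTLA4 and the gene at position 6 under Anti PDL1, also with floor values raised to their limits. It was at position 71 under IgG and 189 under the combination. Counting error alone would give a log2 SD of about 0.07 for A2m in the IgG tumours.

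Both ends of the A2m range differ in how well they were counted. The value of 4152 in Anti CTLA4 3 rested on 4435 counts (95% Poisson interval 4305 to 4567), and that of 2247 in Anti PDL1 1 on 3421 counts. In Anti PDL1 2 only 29 counts were recovered (interval 19.4 to 41.6), and the highest negative probe of that library read 30. By that probe A2m was not distinguishable from background in Anti PDL1 2, although the negative probes there averaged 14.75 counts. In Anti CTLA4 2, where it was listed at the floor, A2m was not distinguishable from background either.

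F2rl1, the receptor gene, was at 113, 127 and 78.4 normalized counts in the IgG tumours. Under Anti PDL1 it was at 139.9, the floor and 185.7, and under the combination at 151.9, the floor and 158.9. Under Anti CTLA4 it was at 56.2, the floor and 32.8. In both groups that received anti-PDL1, 2 of 3 tumours lay above all IgG tumours by their values and the library numbered 2 lay at the floor. The Poisson interval of Ctrl IgG 2 reached 144.8, however. That was above the lower ends in Anti PDL1 1 (121.8), Anti PDL1+CTLA4 1 (131.9) and Anti PDL1+CTLA4 3 (135.3), though not in Anti PDL1 3 (157.3). All 3 Anti CTLA4 tumours lay below all IgG tumours by their values. The Poisson interval of Anti CTLA4 1 reached 83.0, above the lowest IgG value of 78.4.

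The highest F2rl1 value exceeded the limit of the floor library at least 4.42-fold under Anti PDL1 and at least 4.43-fold under the combination. For Anti CTLA4 that bound was 1.07. The 2 readings above the floor in that group rested on 25 counts (interval 16.2 to 36.9) in Anti CTLA4 1 and 35 counts (24.4 to 48.7) in Anti CTLA4 3, with highest negative probes of 18 and 17. Under IgG the ratio of highest to lowest was 1.62, with a log2 SD of 0.36 against about 0.13 from counting error alone.

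In the IgG tumours Map3k12 varied little. It was at 105.6, 91.7 and 92.7 normalized counts under IgG, with a log2 SD of 0.11, which did not exceed the 0.13 or so that counting error alone would give. Under Anti PDL1 it was at 115, the floor and 110.7, and under the combination at 106.4, the floor and 97.7. Under Anti CTLA4 it was at 74.2, the floor and 20.6.

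The Map3k12 bound of highest over floor limit was 2.74 under Anti PDL1, 2.97 under the combination and 1.41 under Anti CTLA4. In Anti CTLA4 3 the value of 20.6 came from 22 counts (interval 13.8 to 33.3), next to a highest negative probe of 17. By its log2 SD the gene stood at position 625 of 770 within IgG and at 17 under the combination, or at 56 with floor values raised to their limits. The large spread of this gene was in the treated groups and came from libraries at or next to the floor.

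Crabp2 was at 145.9, 237 and 107 normalized counts under IgG. Under Anti PDL1 it was at 329.8, the floor and 299, under the combination at 315, the floor and 260.5, and under Anti CTLA4 at 80.9, the floor and the floor. In each of the groups given anti-PDL1, alone or combined, 2 tumours lay above all IgG tumours and 1 below all of them. In Anti PDL1+CTLA4 3 the Poisson interval began at 230.0, below the upper end of 261.0 in Ctrl IgG 2.

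The highest Crabp2 value exceeded the floor limit at least 7.85-fold under Anti PDL1 and at least 8.80-fold under the combination, and at least 1.54-fold under Anti CTLA4. Under the combination its log2 SD was 2.18 as listed, the highest of the panel, beside a panel median of 0.33. With floor values raised to their limits it was 1.72, behind Epcam with 2.15. Its IgG ratio of highest to lowest was 2.22, with a log2 SD of 0.57 against about 0.11 from counting error. Crabp2 was the 1 gene of 770 listed at the floor in exactly these 4 libraries: Anti PDL1 2, Anti CTLA4 2, Anti CTLA4 3 and Anti PDL1+CTLA4 2.

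**Figure D2:**
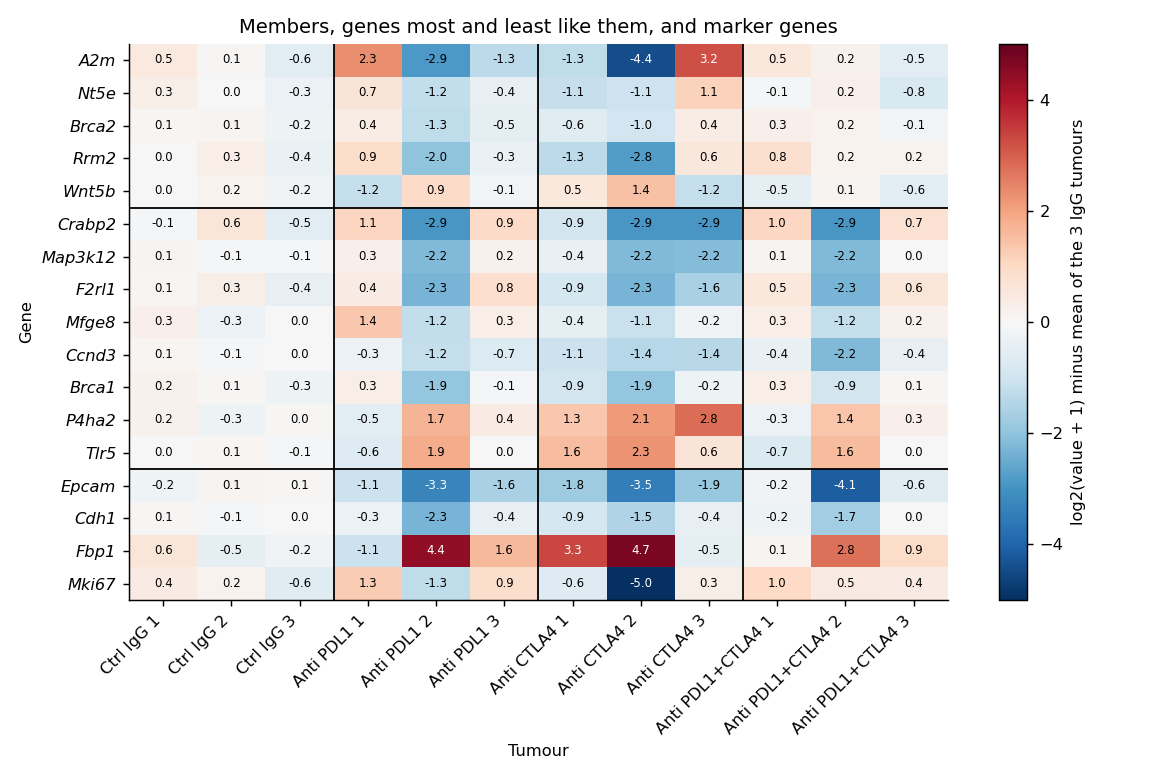
Difference of log2(value + 1) from the mean of the 3 IgG tumours (colour and printed number, colour scale from -5 to 5) for each of the 12 tumours. The upper block holds A2m with the genes most and least like it, the middle block Crabp2, Map3k12 and F2rl1 with theirs, and the lower block marker genes. The middle block is low in Anti PDL1 2, Anti CTLA4 2, Anti CTLA4 3 and Anti PDL1+CTLA4 2, while A2m is high in Anti CTLA4 3. Genes listed at the floor are drawn at 20. Their true level could be lower, or reach 42.0 in Anti PDL1 2, 52.5 in Anti CTLA4 2 and 35.9 in Anti PDL1+CTLA4 2.

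Crabp2, Map3k12 and F2rl1 were low in the same tumours. All 3 were at the floor in Anti PDL1 2, Anti CTLA4 2 and Anti PDL1+CTLA4 2. In Anti CTLA4 3 Crabp2 was at the floor, Map3k12 at 20.6 and F2rl1 at 32.8. In the other 8 tumours Crabp2 ran from 80.9 to 329.8, Map3k12 from 74.2 to 115 and F2rl1 from 56.2 to 185.7, each above the highest floor limit of any library. Anti CTLA4 1 held the lowest of these 8 values for each of the 3 genes. Because the genes were chosen for these differences and the tumours fell into separate sets by them, relations of the 3 genes with one another or with other scores were not tested.

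A2m did not share that pattern. It was at 519.9 in Anti PDL1+CTLA4 2, inside the IgG range, although the 3 other genes were at the floor there. In Anti CTLA4 3 it had its highest value of the 12 tumours, while Crabp2 was at the floor. In Anti CTLA4 2 all 4 genes were at the floor, and in Anti PDL1 2 the 3 were at the floor and A2m at the level of the highest negative probe.

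The scaling factor was high in 3 of the 4 low libraries, at 2.10 in Anti PDL1 2, 2.62 in Anti CTLA4 2 and 1.79 in Anti PDL1+CTLA4 2. It was 0.936 in Anti CTLA4 3, within the IgG range. Anti CTLA4 1 had a factor of 2.25 and all 4 genes above the floor. Crabp2, Map3k12 and F2rl1 rested there on only 36, 33 and 25 counts, beside a highest negative probe of 18. The number 2 that 3 of these libraries share is given in the labels as a replicate number alone.

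Several marker genes moved with these values. The 5 measured hepatocyte and liver markers summed to 37935 to 53665 normalized counts in the IgG tumours. Apoe made up most of the sum in every tumour, with 29255 to 40050 under IgG and 455655 in Anti PDL1 2. With Anti PDL1 the sum was 49827 to 605414, with Anti CTLA4 44267 to 480867 and with both antibodies 61693 to 196568. Their mean log2(value + 1), the liver score, was 11.41 to 12.01 under IgG, 14.69 in Anti PDL1 2, 14.80 in Anti CTLA4 2, 13.96 in Anti CTLA4 1 and 13.45 in Anti PDL1+CTLA4 2. In Anti CTLA4 3, low in Crabp2, Map3k12 and F2rl1 as well, it was 11.52. Fewer cells of a type and less RNA per cell cannot be told apart in such bulk RNA, and the part that the liver content has in these values was not tested.

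Proliferation genes and epithelial genes moved too. Of 18 proliferation genes 13 were measured, and they summed to 20271 to 21348 normalized counts in the IgG tumours. With Anti PDL1 the sum was 2796 to 24903, with Anti CTLA4 1242 to 20746 and with both antibodies 14540 to 23283. Birc5, which encodes survivin, was at 7693 to 10248 under IgG, 427 in Anti PDL1 2, 170.6 in Anti CTLA4 2 and 6692 in Anti CTLA4 3. None of the 13 was at the floor in all 3 tumours of a group, and 5 were at it in at least 1 of the 12 tumours. Of 8 cholangiocyte and epithelial markers only Epcam and Cdh1, 2 adhesion molecules of epithelial cells, were measured. Epcam was at 755 to 973 normalized counts under IgG, and at 88.3 in Anti PDL1 2, 78.7 in Anti CTLA4 2, 235.9 in Anti CTLA4 3 and 50.2 in Anti PDL1+CTLA4 2. Cdh1 was at 2626 to 2874 under IgG, and at 540.0, 955, 2058 and 819 in the same 4 tumours. In the treated tumours outside these 4, Epcam was at 258.5 to 769.6 and Cdh1 at 1484 to 2690. The proliferation sum was 8623 to 24903 there, against 1242 to 20746 in the 4. Each of these lowest values outside the 4 was that of Anti CTLA4 1. The part of the proliferation and epithelial genes in the result was not tested.

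Markers of other cells moved in some of the same tumours. Of 10 endothelial markers 5 were measured and none was at the floor in any tumour; they summed to 852 to 1165 normalized counts under IgG, 3059 in Anti PDL1 2, 2635 in Anti CTLA4 2, 1373 in Anti CTLA4 3 and 1685 in Anti PDL1+CTLA4 2. Of 15 macrophage markers 12 were measured, with sums of 5878 to 8439 under IgG and 21044, 8676, 9224 and 12648 in the same 4 tumours. Of 9 neutrophil markers 6 were measured, with sums of 344 to 428 under IgG and 1142, 465, 2701 and 1499. In the treated tumours outside these 4, the endothelial sum was 998 to 2149, the macrophage sum 7888 to 15374 and the neutrophil sum 358 to 723. These ranges overlap those of the 4 tumours, so the shifts were not particular to them. The neutrophil sum was highest in Anti CTLA4 3, where A2m was highest and Crabp2 was at the floor. The part of these cells in the 4 genes was not tested.

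**Figure D3:**
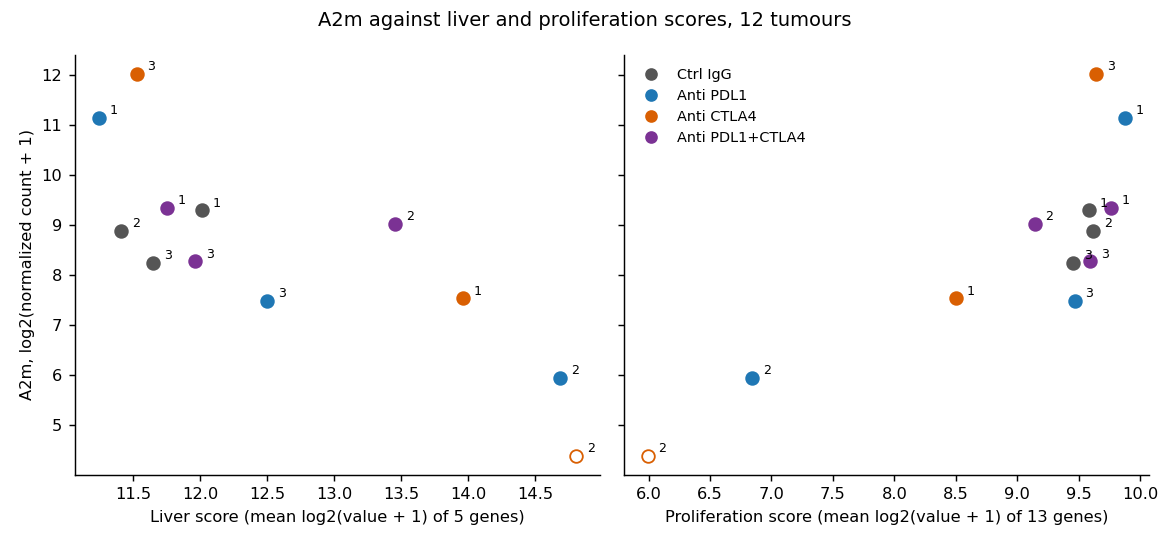
A2m, as log2(normalized count + 1) on the vertical axis, against the liver score (left) and the proliferation score (right) of the same tumour, coloured by group and numbered by replicate; the open point was listed at the floor. A2m is lower where the liver score is higher (r = -0.81) and higher where the proliferation score is higher (r = 0.83), and both relations lean on Anti CTLA4 2 and Anti PDL1 2, whose proliferation scores are 5.99 and 6.84.

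A2m was lower in tumours with a high liver score and higher in tumours with a high proliferation score. Over the 12 mice Pearson's r with the liver score was -0.81 and Spearman's rho was -0.75. With the proliferation score r was 0.83 and rho was 0.85. A2m was chosen for its differences between tumours, so these values describe the 12 libraries and no test is given.

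Both relations lean on 2 tumours. Without Anti CTLA4 2 and Anti PDL1 2, the mice farthest from the median of either score, r was -0.55 with the liver score and 0.55 with the proliferation score over 10 mice. The same 2 libraries had A2m at or next to background and factors of 2.62 and 2.10. With each group centred on its own mean, r was -0.85 and 0.87. The labels name no batch within which the relations could be computed again.

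The genes most like each member were taken by Pearson's r of log2(value + 1) over the 12 libraries, among 656 genes above the floor in at least 6 of them. These correlations describe the profiles; all genes of a library share its depth and factor. Nearest to A2m were Nt5e, which encodes the ecto-enzyme CD73 that makes adenosine (r = 0.90), Brca2, a gene of homologous recombination (r = 0.90), and Rrm2, a subunit of ribonucleotide reductase (r = 0.90). Rrm2 is also a member of the proliferation list. Nt5e was at 142 to 218 normalized counts under IgG, 388 in Anti CTLA4 3 and 277 in Anti PDL1 1, and at 73.5 in Anti PDL1 2 and 84.0 in Anti CTLA4 2. The gene least like A2m was Wnt5b, a Wnt ligand (r = -0.91), with 131 normalized counts in Anti CTLA4 2 and the floor in Anti CTLA4 3 and Anti PDL1 1.

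Crabp2, Map3k12 and F2rl1 were one another's nearest genes. Over the 12 libraries r was 0.98 between Crabp2 and F2rl1, 0.96 between Crabp2 and Map3k12 and 0.96 between Map3k12 and F2rl1. These values largely describe the shared floor libraries. The next gene was Mfge8, which links dying cells to phagocytes, for Crabp2 (r = 0.83). For Map3k12 it was Ccnd3, which encodes cyclin D3 (r = 0.86), and for F2rl1 it was Brca1, a gene of DNA repair (r = 0.86).

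The gene least like both Crabp2 (r = -0.90) and Map3k12 (r = -0.89) was P4ha2, a subunit of the collagen prolyl 4-hydroxylase. It was at 46.1 to 65.3 normalized counts under IgG and at 184.9 in Anti PDL1 2, 244 in Anti CTLA4 2, 391 in Anti CTLA4 3 and 148.8 in Anti PDL1+CTLA4 2. In Anti CTLA4 1, with Crabp2 above the floor, it was at 141.6, next to the lowest of these 4. P4ha2 was picked by this correlation, so the order adds nothing to it. For F2rl1 the least like gene was Tlr5, the receptor for flagellin (r = -0.89), at 33.1 to 37.7 under IgG and 130, 173, 55.2 and 107.6 in the same 4 tumours. In Anti CTLA4 1, with F2rl1 above the floor, Tlr5 was at 105.7, and in the remaining treated tumours at 21.3 to 34.5.

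**Figure D4:**
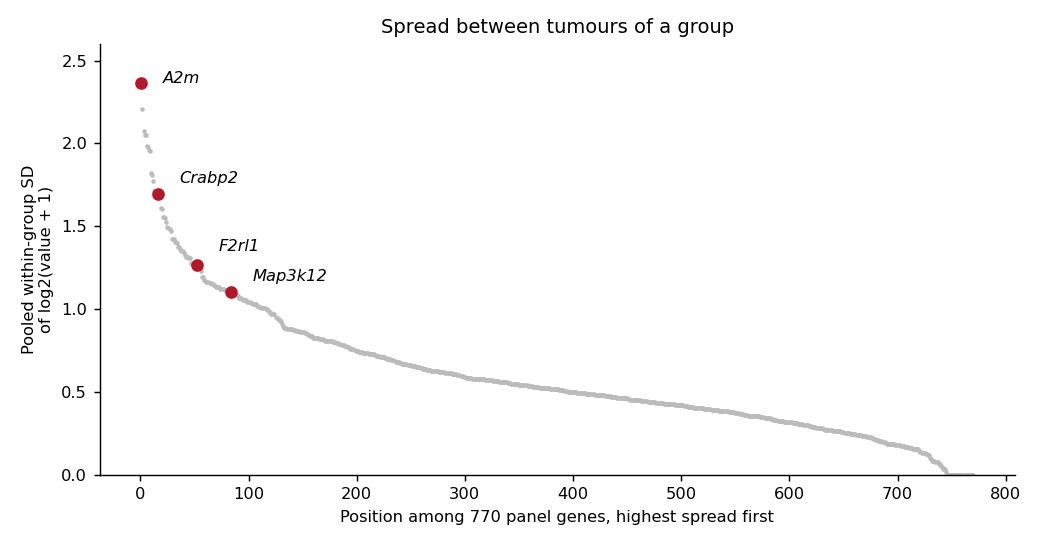
Pooled within-group SD of log2(value + 1) (vertical axis) of each of the 770 genes, ordered from the highest (horizontal axis), with the 4 described genes in red. A2m stands first with 2.36, Crabp2 at position 16 with 1.69, F2rl1 at 52 with 1.26 and Map3k12 at 84 with 1.10.

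By the SD pooled over the 4 groups, the measure closest to how the genes were chosen, A2m stood first with 2.36 and Crabp2 at position 16 with 1.69. F2rl1 stood at position 52 with 1.26 and Map3k12 at 84 with 1.10, beside a panel median of 0.52. After A2m came Tdo2 (2.21), Ces3a (2.08), Prlr (2.05) and Fbp1 (2.05). Tdo2 and Fbp1 encode liver enzymes of tryptophan breakdown and gluconeogenesis, Ces3a a carboxylesterase and Prlr the prolactin receptor. Each of these 4 was higher in Anti PDL1 2 and Anti CTLA4 2 than in any IgG tumour, the opposite of the 4 described genes. When every value under 52.5 was raised to that level, a step added after the data were seen, A2m stood at position 2 (2.13), Crabp2 at 73 (1.08), F2rl1 at 197 (0.68) and Map3k12 at 343 (0.44), beside a panel median of 0.39. The standing of Map3k12 and F2rl1 as variable genes thus depended on how values at the floor were read.

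**Figure D5:**
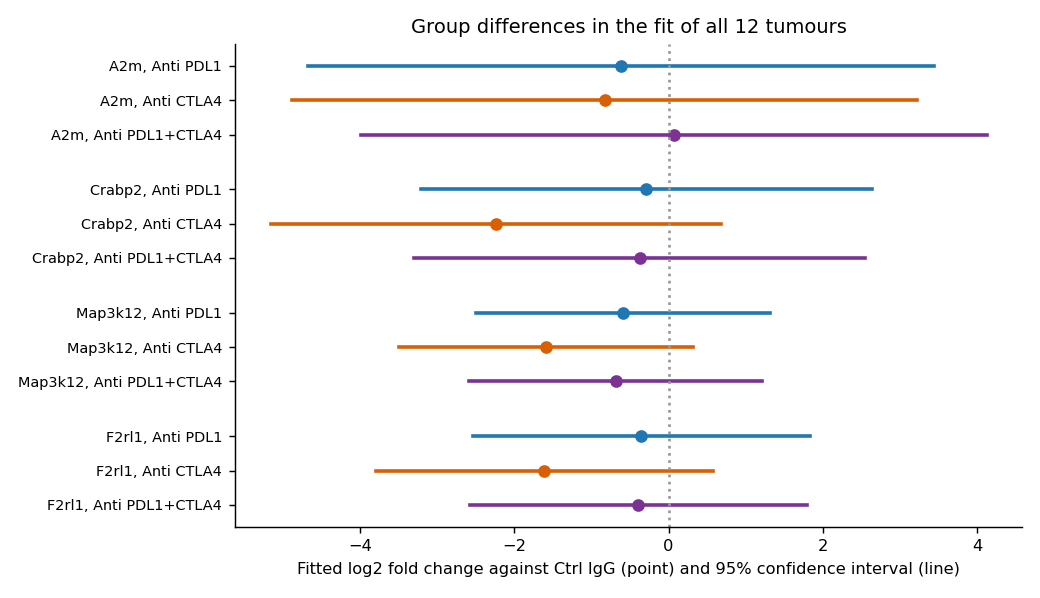
Fitted log2 fold change of each gene in each treated group against the IgG group (points) with its 95% confidence interval (lines), from the fit of all 12 tumours. All 12 intervals include 0, the widest being those of A2m.

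The comparisons with IgG ask whether a group as a whole differed, and 0 of the 4 genes passed the threshold in any of them (limma on log2(value + 1), adjusted p below 0.05 over 770 genes). At an unadjusted p below 0.05 the count was also 0 in each, while 146 of all 770 genes (19%) passed that level for Anti PDL1, 165 (21.4%) for Anti CTLA4 and 119 (15.5%) for the combination. Of all genes, Anti PDL1 had 2.99% called (0.26% higher, 2.73% lower), Anti CTLA4 2.6% (0% higher, 2.6% lower) and the combination 2.86% (0.13% higher, 2.73% lower). Higher and lower calls numbered 2 and 21, 0 and 20, and 1 and 21 in the same order. With quantile normalization the split was 5 and 10, 4 and 14, and 6 and 14, and with median scaling 7 and 26 for Anti PDL1. The spread by which the 4 genes were chosen also enters the errors of these comparisons.

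Under Anti CTLA4 the fitted log2 fold changes were -2.24 for Crabp2 (SE 1.30, limma adjusted p = 0.309), -1.59 for Map3k12 (SE 0.845, adjusted p = 0.293) and -1.61 for F2rl1 (SE 0.969, adjusted p = 0.327). With floor values raised to the limit of their library the differences were -1.79, -1.14 and -1.16. By their values all 3 Anti CTLA4 tumours lay below all 3 IgG tumours in each of these genes, also with the floor at its limit. The same held for 4.42% of the 770 genes. For Anti CTLA4 1 this order was within counting error. Its Poisson intervals reached 112 normalized counts for Crabp2, 104 for Map3k12 and 83.0 for F2rl1. The lowest IgG values of these genes were 107, 91.65 and 78.4. The log2 fold change of A2m was -0.83 (SE 1.80, limma adjusted p = 0.791). It was at 0.97 without Anti CTLA4 2, -2.84 without Anti CTLA4 3 and -0.60 without Anti CTLA4 1.

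Under Anti PDL1 the log2 fold changes were -0.62 for A2m (SE 1.80, limma adjusted p = 0.892), -0.29 for Crabp2 (SE 1.30, adjusted p = 0.945), -0.59 for Map3k12 (SE 0.845, adjusted p = 0.729) and -0.36 for F2rl1 (SE 0.969, adjusted p = 0.884). Without Anti PDL1 2, the lowest of its group in each gene, all 4 were above 0, at 0.50, 1.02, 0.22 and 0.63. Without Anti PDL1 1 they were -2.09, -0.97, -1.01 and -0.75, and without Anti PDL1 3 they were -0.26, -0.90, -0.98 and -0.95. No member had all 3 Anti PDL1 tumours on 1 side of all IgG tumours, where 7.14% of all genes were lower and 13% higher.

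Under the combination the fitted difference of A2m was 0.07 on the log2 scale (95% confidence interval -3.98 to 4.12, SE 1.80, limma adjusted p = 1). Crabp2 was at -0.37 (SE 1.30, adjusted p = 0.980), Map3k12 at -0.69 (SE 0.845, adjusted p = 0.806) and F2rl1 at -0.39 (SE 0.969, adjusted p = 0.955). Without Anti PDL1+CTLA4 2, the lowest of its group in each, these 3 were at 0.88, 0.08 and 0.57. Without Anti PDL1+CTLA4 1 they were at -1.07, -1.10 and -0.86, and without Anti PDL1+CTLA4 3 at -0.93, -1.04 and -0.89. No member was on 1 side of IgG in all 3 tumours, against 8.7% of all genes lower and 22.7% higher. All 3 comparisons share the IgG tumours. Between treated groups 0 of the 4 genes passed either; Crabp2 was 1.95 higher on the log2 scale with Anti PDL1 than with Anti CTLA4 (95% confidence interval -0.97 to 4.87, limma adjusted p = 1).

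Other genes around each member were taken from 4 lists of its pathway, described by their counts. Of 29 other genes of protease control and the acute phase, 10 were measured, and 0 were called in any comparison (limma), with 2, 1 and 3 at an unadjusted p below 0.05 for Anti PDL1, Anti CTLA4 and both together, against 19%, 21.4% and 15.5% of all genes. Their median log2 fold changes were 0.27, 0.13 and 0.31, beside 0.07, 0.17 and 0.03 over all genes. The most variable of them were Serpina1a and Serpinh1. Serpina1a, the liver inhibitor of elastase and also a liver marker here, was at 4416 to 8119 normalized counts under IgG, 82990 in Anti PDL1 2 and 99914 in Anti CTLA4 2. Serpinh1, a collagen chaperone, was at 2474 to 2854 under IgG and at 384.5 and 352 in the same 2 tumours, and its highest value was 4259 in Anti PDL1 1. In those 2 tumours, the lowest of the 12 in A2m, Serpinh1 was thus low and Serpina1a high. Anti CTLA4 1 had the same shift (861 and 51293) with A2m at 184. So had Anti PDL1+CTLA4 2 (1043 and 26286), where A2m was at 519.9, inside the IgG range.

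Of 28 other genes of protease-activated receptors and coagulation, 8 were measured. The 1 gene called was Il6, an inflammatory cytokine, which fell from 34.8 ± 1.63 normalized counts under IgG (SD, n = 3) to the floor in all 9 treated tumours (limma adjusted p = 1.07e-06 in each comparison). Floor values enter that fit as if exact. The fall was at least 1.25-fold under Anti PDL1 and at least 1.41-fold under the combination, and no bound could be given under Anti CTLA4, where the mean of the floor limits lies above the IgG mean. With every value under 52.5 raised to that level Il6 holds no difference between tumours. At an unadjusted p below 0.05 there were 2, 4 and 2 of the 8, beside the same 19%, 21.4% and 15.5% of all genes. Median log2 fold changes were -0.08, 0.02 and -0.08. Cxcl1, a chemokine for neutrophils, was at 146 to 283 under IgG, 1143 in Anti PDL1 2 and 1488 in Anti CTLA4 2. Cxcl2, a related chemokine, stayed between the floor and 54.0 in the 12 tumours.

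Of 31 other genes of the MAP kinase and JNK cascade, 8 were measured and 0 were called (limma), with 1, 2 and 2 at an unadjusted p below 0.05, beside 19%, 21.4% and 15.5% of all genes. Median log2 fold changes were -0.02, 0.12 and 0.07. Dusp2, a phosphatase that switches MAP kinases off, was at 239 to 249.7 normalized counts under IgG and at the floor in Anti PDL1 2 and Anti CTLA4 2. In Anti PDL1+CTLA4 2 it was at 75.3 and in Anti CTLA4 3, where Map3k12 was next to the floor, at 187. Dusp2 was lower than that in Anti CTLA4 1 (117), Anti PDL1 3 (138) and Anti PDL1 1 (159), where Map3k12 was higher. It was above 187 in Anti PDL1+CTLA4 1 (223), Anti PDL1+CTLA4 3 (206) and all IgG tumours. Map3k12 in Anti CTLA4 1 rested on 33 counts, beside a highest negative probe of 18. Atf3, a transcription factor of the stress response, was at 170.1 to 399.7 under IgG and up to 856 in Anti PDL1+CTLA4 3. Of 19 other genes of retinoic acid handling, 0 were measured, so Crabp2 has no neighbour of its pathway in these data.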

How the data were processed

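The deposited table holds signal: nCounter counts that the authors scaled by 1 factor per library and floored at 20, as the values show. The sources used here do not give the software or method. Each library's factor was recovered as the largest step of which the values above the floor are whole multiples (at least 99.84% of genes within 0.0075), and the 14 control probes were unscaled whole numbers. In libraries with a factor above 1 no listed value above the floor came from under 20 counts, so a floor value was given the limit of 20 times the factor.

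Tests used limma 3.58.1 (R 4.3.3) on log2(value + 1) (mean-variance trend, 4 group means, 8 residual degrees of freedom, two-sided, Benjamini-Hochberg over 770 genes). No filter was applied in the reported fit. Each sample is a mouse, and p-values set a group difference against the spread within groups of these 12 samples, moderated over all 770 genes. Intervals of counts are exact Poisson intervals and cover counting error only.

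The 4 genes, the gene lists and the tests were chosen with earlier results of these data known. Named genes are the 4 members, the 3 most and 1 least correlated with each, the 5 of highest pooled SD, list genes called (at most 4) or with the 2 highest pooled SDs, and up to 3 marker genes of highest mean. Of 14 planned relations 2, those of A2m with a score, are given as descriptions and the others are left out, since the members were chosen for their spread between tumours and Crabp2, Map3k12 and F2rl1 split the tumours into separate sets. All 770 names matched RefSeq symbols or synonyms of GRCm38.p6, used for names alone. Same-numbered IgG and treated libraries had correlations of deviations from the group means of -0.31 to 0.16. Between treated groups they were 0.57 to 0.73 for number 2, 0.3 to 0.47 for number 3 and -0.43 to 0.64 for number 1. Not every pair was above 0.1 and the labels give the number no meaning, so numbers were not taken as pairs; the like deviations of the treated libraries numbered 2 were not tested for a shared batch. Alternatives were another pseudocount, filter or scaling, no trend, only the groups compared, a replicate block, each library left out and, added after the data were seen, a common floor and floor values raised to their limits.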

Additional observations from a re-analysis of the deposited data

How the results depend on the processing

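In none of the 252 alternative fits did a member pass the threshold against IgG; the lowest adjusted p was 0.152, for Map3k12 under Anti CTLA4 with the replicate block. Directions under Anti CTLA4 held for Crabp2, Map3k12 and F2rl1 in every alternative run. Leaving out single libraries gave log2 fold changes under Anti PDL1 of -2.09 to 0.50 for A2m, -0.97 to 1.02 for Crabp2, -1.01 to 0.22 for Map3k12 and -0.95 to 0.63 for F2rl1. Under the combination they ran from -0.21 to 0.37 for A2m, -1.07 to 0.88 for Crabp2, -1.10 to 0.079 for Map3k12 and -0.89 to 0.57 for F2rl1, and under Anti CTLA4 from -2.84 to 0.97 for A2m. The turns came without the library numbered 2 of the group, except that Crabp2 under Anti PDL1 also turned without Ctrl IgG 2, and A2m under the combination also without Ctrl IgG 3 or the library numbered 1. With a common floor, Crabp2 and F2rl1 were at 0.16 and 0.094 under Anti PDL1 and at 0.075 and 0.058 under the combination. A2m under the combination was at -0.35 with median scaling and -0.27 with quantile normalization. The median over all genes shifted with median scaling from 0.07, 0.17 and 0.03 to -0.28, -0.19 and -0.38 under Anti PDL1, Anti CTLA4 and the combination.

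Called genes numbered 23, 20 and 22 in that order. They were 8, 10 and 48 with only the groups compared, 2, 2 and 2 with a common floor, 21, 20 and 14 with the replicate block, 15 under Anti PDL1 with quantile normalization and 38 under the combination with median scaling. Leaving out single libraries gave 14 to 32, 12 to 45 and 12 to 31; 45 came without Anti PDL1 2. Under the block no call of a member changed. Of the treated libraries, 1, 2 and 0 of 3 correlated best with the IgG library of their own number. The cause of these changes was not tested.

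The A2m relations ran from -0.85 to -0.72 and from 0.71 to 0.89 when single libraries were left out, and were -0.55 and 0.55 without the 2 farthest mice. Of 128 alternative log2 ranges within groups, 22 moved by more than 1 SD. Floor limits of up to 52.5 and few counts near the negative probes limit every low value of the 4 genes.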

Other observations

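Erbb2, Adora2a and Pdcd1lg2 were listed at the floor in exactly the 3 libraries in which Map3k12 and F2rl1 were, and in no other; they were found after the data were seen. Erbb2 encodes a receptor tyrosine kinase, Adora2a an adenosine receptor and Pdcd1lg2 a ligand of the receptor PD-1. Above the floor they ran from 30.6 to 77.6, from 28.3 to 70.7 and from 25.8 to 89.4 normalized counts over 9 tumours. These ranges overlap the floor limits of 35.9 to 52.5, so floor and other tumours cannot be told apart there. Over the same 9 tumours Map3k12 ran from 20.6 to 115 and F2rl1 from 32.8 to 185.7, ranges that overlap those limits too. Without Anti CTLA4 3 the lowest values were 74.2 and 56.2, above the limits. The low set was drawn from these same values, so that gap is no separate result. A2m shared its 1 floor library, Anti CTLA4 2, with 26 other genes, among them the proliferation genes Cdc20 and Kif2c and the T cell genes Cd2 and Cd3g.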
